A study of Mus musculus with 6 samples.

Results

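Cytosolic ribosomal proteins are the protein parts of the ribosomes that translate nuclear-encoded mRNA, and their genes were taken from the deposited table by name. A gene was a member if its name starts with Rpl or Rps and a digit, or is Rplp0, Rplp1, Rplp2 or Rpsa. Names starting with Rps6k or Rps19bp1 and names containing -ps were left out. The rule uses names only and found 89 members among 14005 listed genes. All 89 passed the filter on low values, a mean of at least 10 normalized counts, which left 13977 genes to test. Of the members, 77 are the core genes of the 40S and 60S subunits and 12 are paralogues or copies of one. RNA came from primary bone marrow-derived macrophages (BMDM) of mice, 3 libraries per group, in a study of what loss of the thioredoxin TRX1 does to gene expression. The control group was wild-type C57BL/6J. The other group, Txn1 KO, joined 2 strains, Txn1tm1.1Ees/J, whose Txn1 allele can be deleted by Cre, and B6.129P2-Lyz2tm1(cre)lfo/J, whose Cre gene sits in Lyz2, a gene that myeloid cells express. Each sample is described as pooled male and female. The series has no group with Cre alone, so loss of Txn1 and the effects of the Cre allele and its strain of origin cannot be told apart.

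A ribosome is a small 40S subunit, which reads the mRNA, and a large 60S subunit, which joins amino acids. Ribosomal proteins are made in near-equal numbers, and their mRNAs are among the most abundant of a growing cell. Most of these mRNAs begin with a run of pyrimidines, the 5′ terminal oligopyrimidine (TOP) tract, through which the kinase mTOR and the RNA-binding protein Larp1 control their translation and stability.

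The whole reads recovered from the deposited values numbered 22508616 to 38726953 per library, so the core members, with means of 3654 normalized counts or more, are limited by the spread between libraries and not by counting. Lyz2 was at 364408 ± 3550 normalized counts (SD, n = 3) in wild type and 3118 ± 1281 in Txn1 KO, the group with the Cre gene in Lyz2. The labels give no level of Lyz2. Txn1, counted over the whole gene, was at 12580 ± 532 and 12349 ± 367, which does not check a deletion of part of the gene. Of the 9 listed genes that bear the symbols of 8 macrophage markers, 3 rose and 4, Lyz2 among them, fell. A symbol borne by more than 1 listed gene counts for each. Csf1r and Adgre1 were not called. Wild-type replicate 1 and Txn1 KO replicate 3 stood apart on the second principal component. They also had higher sums of liver markers (9 of 17 markers listed, summing to 2696 and 2678 normalized counts, against 1529 to 1761 in the other 4 libraries). Of these 9, 6 had a mean under 50. The highest had a wild-type mean of 1466, so a single gene makes up much of the wild-type sums. Of 10 stromal markers 8 were lower in Txn1 KO, with sums of 3120 to 3717 against 1576 to 2556. Red cell and lymphocyte markers were not among the listed genes. The part of these transcripts in the results on ribosomal proteins was not tested, and in bulk RNA fewer cells of a type and less RNA per cell cannot be told apart. No label ties a replicate to an animal or culture of its own. The p-values therefore rest on the spread among these libraries, part or all of which may be technical.

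The ribosomal protein genes were lower in Txn1 KO, by a small amount and in most of the family. By limma's moderated test at a Benjamini-Hochberg adjusted p under 0.05, 51 of the 89 members fell and 1, Rpl22l1, rose, against a background of 9.97% of all tested genes lower and 11.5% higher. The median log2 change of the members was -0.13 (91.1% of the wild-type mean), while that of all tested genes was -0.0049. No called member changed 2-fold. In 55 members every Txn1 KO library was below every wild-type library and in 2 members every one was above, against 17.6% and 18.5% of all tested genes. The authors' deposited table, which has its own log2 changes and adjusted p, calls 52 members lower and 1 higher (8.87% and 10.4% of its genes). edgeR's quasi-likelihood test on the recovered reads calls 50 lower and 1 higher (9.94% and 11.3% of all tested genes). These counts use all 6 libraries. When wild-type replicate 1 was left out, limma called 35 members lower and 6 higher (8.13% and 10.1% of all tested genes), as described further on.

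**Figure D1:**
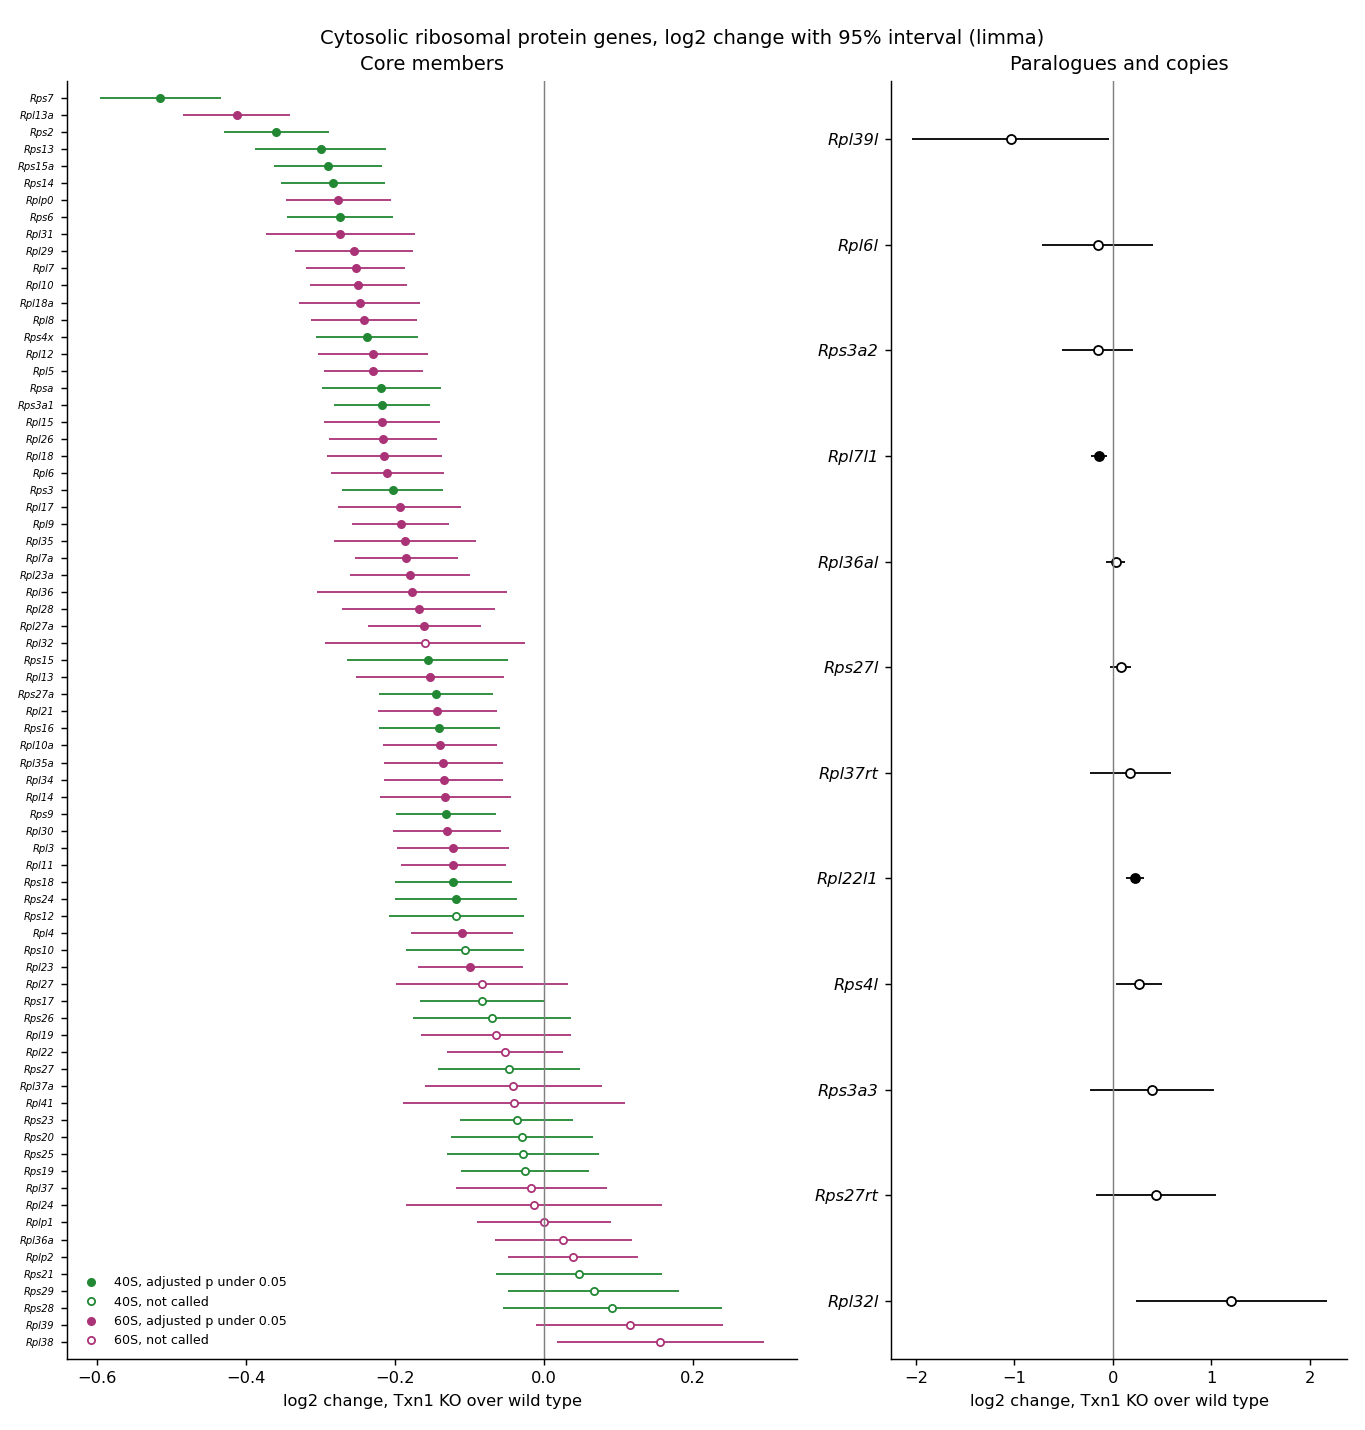
Log2 change, Txn1 KO over wild type, of 74 core members (left) and the 12 paralogues and copies (right, on a wider axis), from limma on log2(normalized count + 1), n = 3 per group. Points are estimates, lines 95% intervals, filled points genes with an adjusted p under 0.05; core members run from -0.51 (Rps7) to 0.16 (Rpl38).

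The start of the gene is where the TOP tract lies, so 30-base windows are shown for members that fell, did not pass the test or rose. They run from 10 bases before the RefSeq start (build GRCm38.p6) to 20 after it, 5′ to 3′ on the gene's strand. Capitals mark a stretch of at least 5 pyrimidines counted from a C that lies within 5 bases of the start. The base before that C was not checked and can be a pyrimidine too, as in Rps15a, Rpl38 and Rpl22l1.
Rps2 (fell, chr17:24720053-24720082, plus strand): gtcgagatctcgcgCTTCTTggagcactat
Rpl13a (fell, chr7:45128726-45128755, minus strand): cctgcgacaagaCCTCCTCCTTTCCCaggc
Rps15a (fell, chr7:118116128-118116157, minus strand): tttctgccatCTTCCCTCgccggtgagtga
Rps6 (fell, chr4:86857348-86857377, minus strand): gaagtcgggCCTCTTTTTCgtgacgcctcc
Rplp0 (fell, chr5:115559457-115559486, plus strand): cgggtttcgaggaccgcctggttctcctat
Rps27 (not called, chr3:90213629-90213658, minus strand): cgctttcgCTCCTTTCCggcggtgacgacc
Rpl38 (not called, chr11:114668570-114668599, plus strand): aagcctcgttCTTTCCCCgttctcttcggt
Rpl22l1 (rose, chr3:28805498-28805527, plus strand): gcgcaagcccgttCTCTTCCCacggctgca

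Such a tract stood in 26 of the 57 core members that the RefSeq table holds (45.6%), against 18.3% of all 32851 promoter windows. The share was much the same by response. Of the 37 core members that fell, 17 had a tract (45.9%), and of the 20 that were not called, 9 had one (45.0%). An annotated start can lie some bases from the true one, and a window without the tract says only that these letters are not in it. In the 300 bases around the start, the letters CCGGAAG (the core of ETS-family sites, either strand) stood in 40.4% of core members, 13 of the 37 that fell and 10 of the 20 not called, against 8.86% of all windows. AAGATGGC, the core of YY1 sites, stood in 7.02% of core members and 2.75% of all windows, and GGGCGG, a GC box, in 59.6% and 35.7%. TATAAA stood in 8.77% and 13.6%, and CACGTG, an E box, in 8.77% and 7.15%. No search masked letters that 2 motifs share. Each member entered with a single window, while the full set of windows was not limited to a single window per gene or to the genes listed here. The shares of members and of all windows are therefore not like for like.

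In the 40S subunit, 17 of 31 core members fell and none rose, with a median log2 change of -0.12. Rps7, whose protein can also bind Mdm2, had the largest fall among the members called. It lies on chr12:28630854-28635953, minus strand (GRCm38). Rps7 was at 17107, 15933 and 16582 normalized counts in wild type and at 12190, 11301 and 11242 in Txn1 KO. All Txn1 KO libraries lay far below all wild-type libraries, at 70% of the wild-type mean (95% interval 66.2 to 74.0%; log2 change -0.51 ± 0.04 (SE), limma adjusted p 2.64e-08).

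Rps2, which lies near the entry of the mRNA channel and is a substrate of the arginine methyltransferase Prmt3, was at 29482, 30460 and 29854 in wild type and 23634, 23970 and 22414 in Txn1 KO. The groups were apart by more than their spread, and the Txn1 KO mean was 78.0% of wild type (log2 change -0.36 ± 0.03, limma adjusted p 4.91e-07). Rps13 was at 8159, 7546 and 7362 against 6516, 6080 and 6136 (log2 change -0.30 ± 0.04). Rps15a was at 7993, 7693 and 7648 against 6464, 6382 and 6239 (-0.29 ± 0.03). Both had groups that did not overlap, and reads listed under their pseudogene copies moved the other way, as described further on.

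Rps14, a protein of the platform close to the mRNA exit, was at 32090, 30590 and 31954 in wild type and 26595, 25785 and 25379 in Txn1 KO (log2 change -0.28 ± 0.03). Rps6, the protein that S6 kinases phosphorylate, was at 11722, 11680 and 12115 against 9863, 10032 and 9492 (-0.27 ± 0.03). In both genes the highest Txn1 KO library was below the lowest wild-type library. Rpsa, whose product is also called the laminin receptor, fell by 0.22 on the log2 scale (29715, 27555 and 28696 against 25350, 25157 and 23404). Rps27a, which encodes a ubiquitin fused to a 40S protein, fell by 0.15 (14604, 13625 and 13633 against 12834, 12190 and 12824), a call lost without Txn1 KO replicate 2. Rps4x, an X-linked protein of the body, fell by 0.24 (22269, 21949 and 21338 against 19056, 18363 and 18187). The 14 core members of the 40S that were not called included Rps28, Rps29 and Rps21, with log2 changes of 0.09, 0.07 and 0.05, and Rps10 at -0.11.

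**Figure D2:**
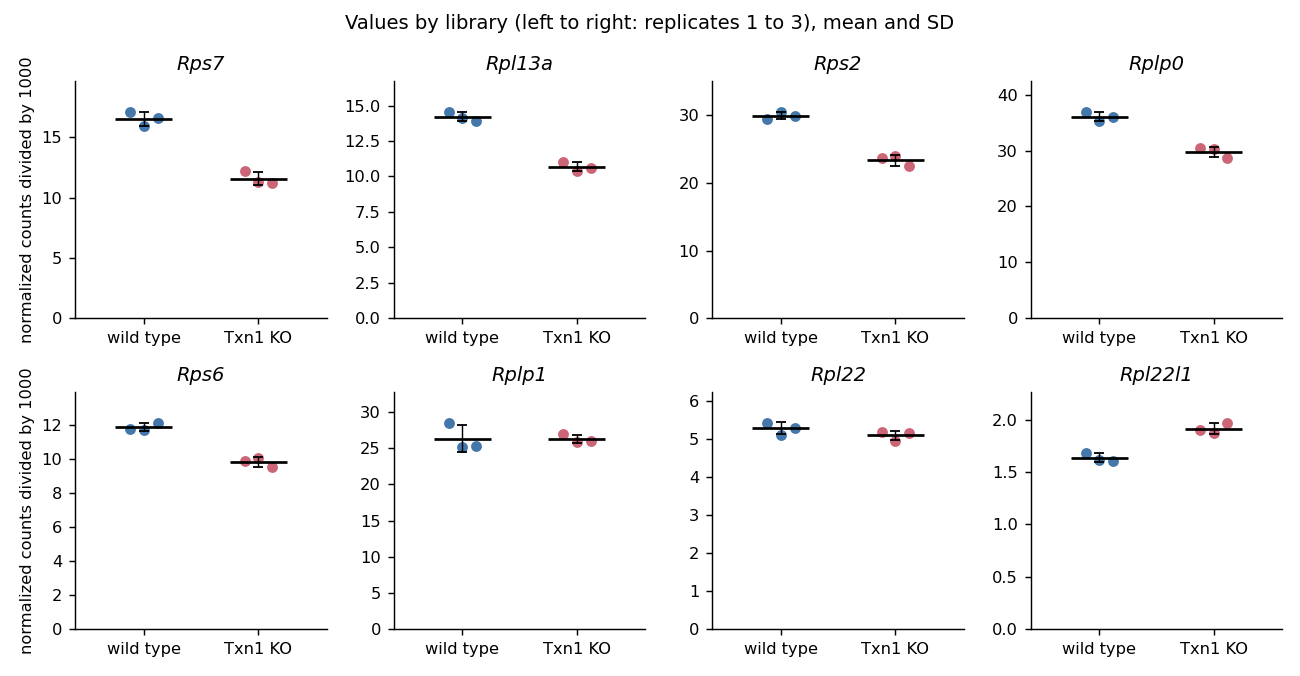
Normalized counts divided by 1000 (axes from 0) of 8 members in each library. Points are replicates 1 to 3 from left to right, bars the mean and SD (n = 3); Rps7, Rpl13a, Rps2, Rplp0 and Rps6 have no overlap between groups, Rpl22l1 is higher in Txn1 KO, and Rplp1 and Rpl22 overlap.

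In the 60S subunit, 33 of 46 core members fell and none rose, with a median log2 change of -0.16. Rpl13a, which is released from ribosomes in interferon-γ-treated myeloid cells to hold back inflammatory mRNAs, had the largest fall of the 60S (chr7:45125558-45128761, minus strand). It was at 14549, 14155 and 13908 normalized counts in wild type and 11012, 10387 and 10613 in Txn1 KO. The groups were far apart, at 75.1% of the wild-type mean (95% interval 71.5 to 78.9%; log2 change -0.41 ± 0.03, limma adjusted p 9.95e-08).

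Rpl31, a protein at the rim of the peptide exit tunnel, was at 22908, 20597 and 19722 in wild type and 17872, 17898 and 16481 in Txn1 KO. Its log2 change was -0.27 ± 0.05 and its groups did not overlap, although wild-type replicate 1 was well above its group. Rpl7 was at 13409, 13440 and 13339 against 11537, 11065 and 11132 (log2 change -0.25 ± 0.03). Rpl10, one of the last proteins to join the 60S and needed for subunit joining, was at 28331, 27973 and 27892 against 24009, 23730 and 23120 (-0.25 ± 0.03). In both, the wild-type libraries lay close together and every Txn1 KO library was below them. Rpl26, which can bind the p53 mRNA, fell by 0.22 (11118, 10624 and 10352 against 9325, 9073 and 9223). Rpl3, at the peptidyl transferase centre, fell by 0.12 (22325, 21021 and 21186 against 20222, 20107 and 18961), a call lost without wild-type replicate 1 or 3 or Txn1 KO replicate 3.

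Rpl5 and Rpl11 join the 5S rRNA in a particle that can bind and inhibit Mdm2 when assembly stalls. Rpl5 was at 16658, 16396 and 17061 in wild type and 14462, 14283 and 14012 in Txn1 KO (log2 change -0.23 ± 0.03). Rpl11 was at 15557, 14478 and 14835 against 13836, 13687 and 13708 (-0.12 ± 0.03). Both fell with no overlap, but the call on Rpl11 was lost without wild-type replicate 1 or without Txn1 KO replicate 2 (highest adjusted p 0.0628). Rpl38 and Rpl39, among the shortest proteins of the 60S, had log2 changes of 0.16 ± 0.07 and 0.12 ± 0.06 and were not called with all libraries.

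The P-stalk is the flexible arm of the 60S that recruits elongation factors, with Rplp0 as its base and pairs of Rplp1 and Rplp2 along it. Rplp0 was at 36915, 35305 and 35992 normalized counts in wild type and 30431, 30202 and 28745 in Txn1 KO (82.6% of wild type, 95% interval 78.6 to 86.7%; log2 change -0.28 ± 0.03, limma adjusted p 1.04e-05). Rplp1 was at 28562, 25213 and 25305 against 26988, 25949 and 26033 (99.9%, 94.0 to 106%). Rplp2 was at 12198, 11342 and 10790 against 11834, 11360 and 12049 (103%, 96.7 to 109%). So the mRNA for the base of the stalk fell, while the values of the 2 mRNAs for the proteins along it overlapped between groups. Rplp0 has 951 coding bases, Rplp1 342 and Rplp2 345. Among core members the fall was larger in long genes, as described further on. The median log2 change was -0.21 in the longest group, which holds Rplp0, and -0.04 in the shortest, which holds Rplp1 and Rplp2. Whether the split is particular to the stalk was not tested. Within libraries, the ratio of Rplp1 to Rplp0 was 0.730 ± 0.038 (SD, n = 3) in wild type and 0.884 ± 0.023 in Txn1 KO, and that of Rplp2 to Rplp0 was 0.317 ± 0.016 and 0.395 ± 0.022. Neither ratio overlapped between groups. A two-sided exact permutation test gave p = 0.10 for each, the smallest that 3 against 3 allows, and 0.12 adjusted over the 6 ratios tested here and in the paralogues.

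Paralogues stand in for core proteins in some cells or tissues. Of the 12 paralogues and copies, 1 rose and 1 fell. Rps4l, Rpl6l, Rpl32l, Rpl37rt, Rps3a2 and Rps3a3 pass the rule on names but are annotated as processed pseudogenes in GENCODE M21. Rpl22l1, the paralogue of Rpl22, was at 1686, 1616 and 1606 normalized counts in wild type and 1906, 1869 and 1972 in Txn1 KO (chr3:28805436-28807424, plus strand). Every Txn1 KO library was above every wild-type library, at 117% of the wild-type mean (95% interval 110 to 125%; log2 change 0.23 ± 0.04, limma adjusted p 0.0012). Its partner Rpl22, which is known to bind the Rpl22l1 transcript and hold it down, was at 5432, 5113 and 5303 against 5182, 4944 and 5157, with overlap (96.4%, 91.4 to 102%). The ratio of Rpl22l1 to Rpl22 was 0.310 ± 0.007 in wild type and 0.376 ± 0.007 in Txn1 KO (exact permutation p = 0.10).

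Rpl7l1, a paralogue of Rpl7 with a part in ribosome assembly, was the other call. It fell from 3811, 3680 and 3632 to 3451, 3353 and 3297 (log2 change -0.14 ± 0.04, limma adjusted p 0.0141), a call lost without wild-type replicate 1. Its ratio to Rpl7 was 0.277 ± 0.006 in wild type and 0.299 ± 0.003 in Txn1 KO (exact permutation p = 0.10). Rps27l, a p53 target, was at 2031, 1788 and 1783 against 1972, 1962 and 1984. It was called higher only when wild-type replicate 1 was left out (log2 change 0.08 with all libraries, 0.14 without it), while Rps27 was at 8871, 8411 and 7830 against 8573, 7834 and 7894. The ratio of Rps27l to Rps27 was 0.223 ± 0.009 and 0.244 ± 0.012, with wild-type and Txn1 KO values next to each other (highest wild-type ratio 0.229, lowest Txn1 KO ratio 0.230; exact permutation p = 0.10). Rpl36al and Rpl36a, whose products are nearly the same, overlapped between groups in both genes and in their ratio (1.02 ± 0.05 and 1.03 ± 0.05, exact permutation p = 1).

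The other 8 paralogues and copies were low. Rps4l, a copy of Rps4x, was highest of these at 264, 212 and 257 normalized counts against 256, 317 and 307, and was not called. Rpl39l, the testis paralogue of Rpl39, was at 14, 20 and 16 against 12, 4 and 9, close to the floor of 3 reads (2.33 to 4.04 normalized counts), and was not called. Rpl39 itself was at 6858, 5475 and 5832 against 6793, 6323 and 6485. Rpl32l was at 6, 14 and 10 against 45, 17 and 16, with no overlap but a limma adjusted p of 0.0728. Rps27rt is identical to Rps27 over 341 bases, Rpl37rt to Rpl37 at 99.7% and Rpl6l to Rpl6 at 98.7%. Rps3a2 and Rps3a3 are identical to Rps3a1 at 99.5 and 98.9%, and Rpl32l to Rpl32 at 96.0%, so how reads were split within these pairs is uncertain. Rps27rt was at 73, 157 and 63 against 189, 101 and 94, Rps3a2 at 100, 74 and 96 against 74, 83 and 83. Rps3a3 was at 30, 34 and 18 against 38, 37 and 30, and Rpl6l at 34, 34 and 28 against 31, 26 and 28. None of these was called.

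The size of the fall differed along the family with the length of the coding sequence (lengths from GENCODE M21). With the 77 core members in 3 groups by coding length, 8 of the 26 shortest fell (75 to 405 bases) and the median log2 change was -0.04. Of the middle group (405 to 564 bases), 19 of 25 fell, with a median of -0.16. Of the longest (576 to 1257 bases), 23 of 26 fell, with a median of -0.21. Across the 77 genes, which share the same 6 libraries and are not independent, Pearson's r of the log2 change with log2 coding length was -0.60 and Spearman's rho -0.61. Across 12155 tested genes with a coding length, r was 0.04. Falls were also more frequent among core members of high expression. Of the 17 with the highest wild-type means (20153.6 normalized counts or more), 16 fell, with a median of -0.22. Of all 77 core members, 50 fell, with a median of -0.14. Coding length and expression level were not separated, so which of them the size of the fall follows was not tested.

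**Figure D3:**
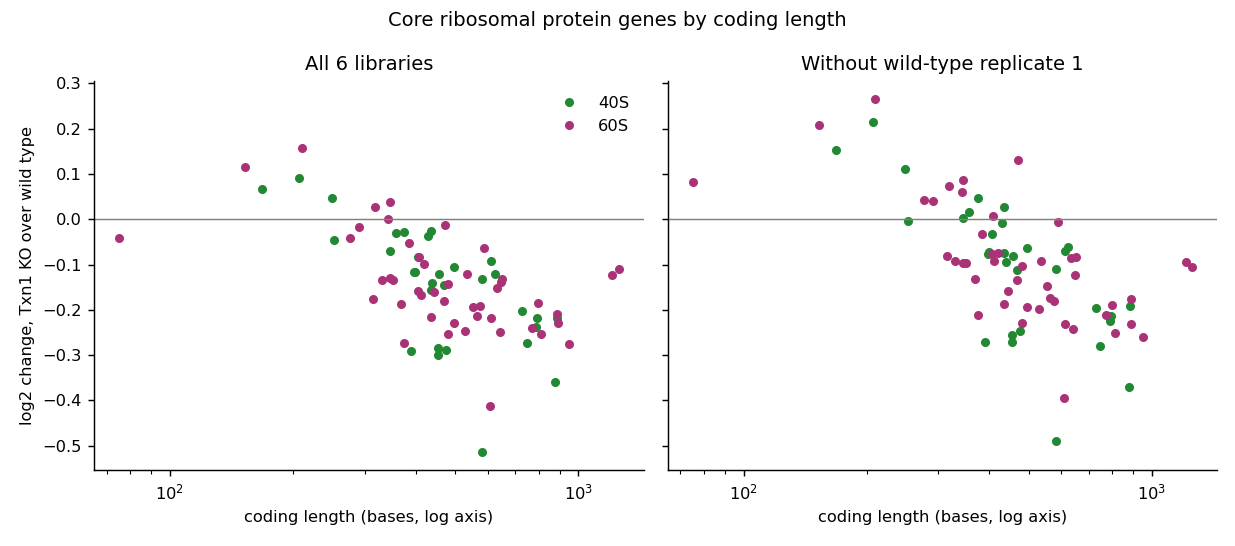
Log2 change, Txn1 KO over wild type, of the 77 core members against coding length (bases, log axis), with all 6 libraries (left) and without wild-type replicate 1 (right). Each point is a gene, coloured by subunit; longer genes lie lower in both panels (Pearson's r -0.60 and -0.66), and short genes lie above 0 more often on the right.

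Wild-type replicate 1 stood apart in this family. It was the highest wild-type library in 69 of the 77 core members, and its excess over the other 2 wild-type libraries was largest in short genes (medians of 12.9, 9.16 and 3.45% in the shortest, middle and longest group; r with log2 coding length -0.69). In Txn1 KO, replicate 1 was highest in 60 of 77. Without wild-type replicate 1, 35 members fell and 6 rose (8.13% and 10.1% of all tested genes), and the median was -0.09. Those that rose were Rpl22l1, Rps28, Rps29, Rpl38, Rpl39 and Rps27l, chosen here after their values were seen. In that fit the shortest group held 4 rises and 3 falls among 26 core members (median 0.01), the middle group 12 falls among 25 (-0.10) and the longest group 20 falls among 26 (-0.19). Without Txn1 KO replicate 3 as well, 32 members fell and 7 rose, now with Rps21 (6.89% and 8.79%), and r with coding length was -0.66. Without Txn1 KO replicate 2, 37 fell and 1 rose (8.47% and 9.55%). Each of the 10 called members with the largest falls was called whichever library was left out.

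Rpl38 shows this dependence. It was at 4306, 3375 and 3485 normalized counts in wild type and 4191, 3971 and 4219 in Txn1 KO. The high wild-type value was that of replicate 1, and the other 2 lay below all Txn1 KO values. Rps28 was at 10465, 7986 and 8229 against 9592, 9074 and 9573, with the same layout. Rps7, at 582 coding bases, and Rps2, at 879, had no such outlying wild-type library.

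As a share of all normalized counts of the listed genes, the 89 members took 3.99, 3.70 and 3.73% in the wild-type libraries and 3.48, 3.42 and 3.35% in the Txn1 KO libraries. The groups did not overlap, and the Txn1 KO mean was 89.7% of wild type (91.9% without wild-type replicate 1). The core 40S genes took 1.59 ± 0.06% and 1.41 ± 0.03%, and the core 60S genes 2.18 ± 0.10% and 1.96 ± 0.04% (SD, n = 3). The Txn1 KO means were 89.1% and 89.9% of wild type. The paralogues and copies took 0.0424 ± 0.0019% and 0.0433 ± 0.0007%.

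**Figure D4:**
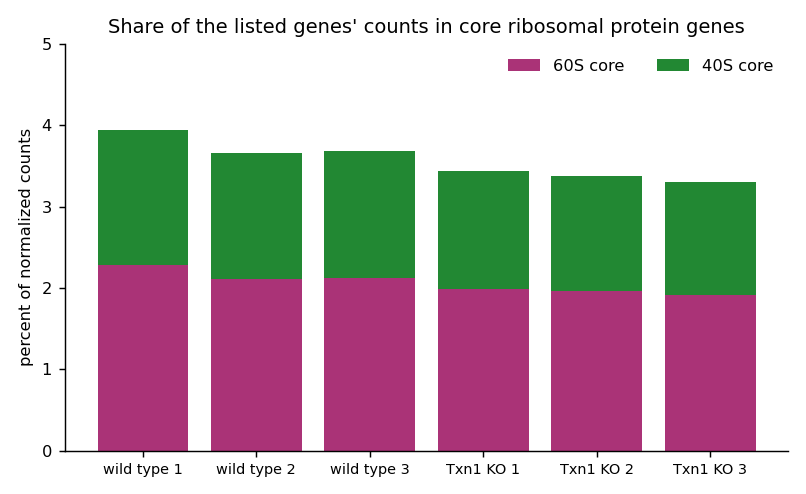
Percent of the summed normalized counts of all listed genes that fell in core 60S (lower bar part) and core 40S (upper part) ribosomal protein genes, in each of the 6 libraries. The 3 wild-type bars are taller than the 3 Txn1 KO bars, and wild-type replicate 1 is the tallest.

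Ribosomal protein genes have many processed pseudogenes, copies of the mRNA set back into the genome without introns. After the values had been seen, the listed pseudogenes were aligned to the members' transcripts. Those that are members themselves were left out of the count. Of the others, 139 matched 73 members at 85% identity or more over at least 70% of the coding sequence. Of these 139, 7 rose and 1 fell, fewer than the 11.5% higher and 9.97% lower of all tested genes would give. That comparison is not like for like, as many copies have low counts. Of the 62 pseudogenes with -ps names, 43 had a mean under 50 normalized counts, against 2845 of all 13977 tested genes. Copies of Rps7, Rps13 and Rps15a, which are among the 5 called members with the largest falls, were among those that rose. Gm6472, a copy of Rps7 (chrX:152909505-152910155, minus strand), was at 73.4, 56.0 and 78.8 normalized counts in wild type and 722, 717 and 729 in Txn1 KO (log2 change 3.38 ± 0.12, limma adjusted p 2.82e-12). Rps13-ps1 (chr8:87047689-87048226, plus strand) was at 6.11, 8.55 and 8.38 against 492, 412 and 406 (5.66 ± 0.20, limma adjusted p 2.53e-12). Every Txn1 KO value was about as high as the others of its group and far above wild type.

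The copies differ from their members by few bases, so the stretches that hold the differences are shown, taken from GENCODE M21 transcripts on GRCm38. Each is 90 bases of coding sequence, 5′ to 3′, with the differing bases in capitals. Rps13 and Rps13-ps1 differ at 2 of 453 coding bases, both within bases 352 to 441. Rps7 and Gm6472 differ at 3 of 582, of which 2 lie within bases 21 to 110.
Rps13: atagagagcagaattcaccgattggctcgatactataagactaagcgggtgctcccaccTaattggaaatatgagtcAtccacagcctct
Rps13-ps1: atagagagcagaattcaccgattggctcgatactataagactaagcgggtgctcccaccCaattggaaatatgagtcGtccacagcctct
Rps7: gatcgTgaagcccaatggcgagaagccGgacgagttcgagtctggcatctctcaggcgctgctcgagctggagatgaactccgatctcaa
Gm6472: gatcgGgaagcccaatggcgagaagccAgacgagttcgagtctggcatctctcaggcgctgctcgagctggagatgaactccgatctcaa

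Of the copies of Rps15a, 3 rose. Rps15a-ps6 (chr11:6172644-6173036, minus strand) was at 26.5, 28.0 and 25.2 against 202, 129 and 148, and Rps15a-ps7 (chr2:152185291-152185682, minus strand) at 5.09, 9.33 and 6.71 against 125, 109 and 98.2. Rps15a-ps5 was at 8.15, 6.99 and 5.03 against 27.8, 22.0 and 24.2. The 2 other copies that rose were Rpl36a-ps3, a copy of Rpl36al (26.5, 22.5 and 19.3 against 82.3, 53.6 and 32.3), and Gm8623, a copy of Rps16 (3.06, 0.777 and 5.87 against 48.7, 15.3 and 6.73). The copy that fell was Gm10736, identical to Rpl41 over 78 bases, at 1198, 1354 and 1160 against 934, 979 and 1027.

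The gain of the copies was smaller than the loss of the member: 13.0% of it for Rps7, 29.3% for Rps13 and 18.0% for Rps15a. With all matched copies added to the member, the Txn1 KO mean was 74.1% of wild type for Rps7 (70% alone), 86.8% for Rps13 (81.2% alone) and 85.1% for Rps15a (81.8% alone). No library of one group overlapped the other in these sums. Whether reads were assigned to a member or its copy by a base that differs between the groups was not tested. Rpl13a, Rps2 and Rplp0 fell with no copy called in either direction.

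**Figure D5:**
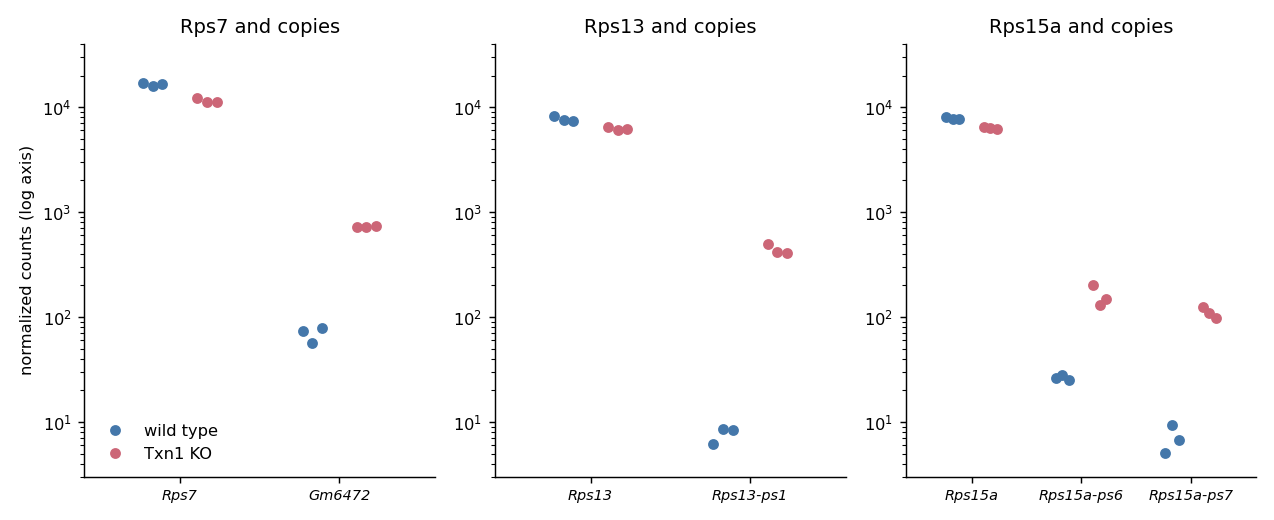
Normalized counts (log axis) of Rps7, Rps13 and Rps15a and of their copies Gm6472, Rps13-ps1, Rps15a-ps6 and Rps15a-ps7, with a point per library, n = 3 per group. The members lie between 6080 and 17107 and are lower in Txn1 KO, and the copies are higher there, Gm6472 from at most 78.8 to at least 717.

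Lists of related genes were counted in the same fit, beside the 9.97% lower and 11.5% higher of all tested genes. Rack1, a 40S scaffold protein whose name the rule does not take, fell by 0.26. Fau, which encodes a 40S protein fused to a ubiquitin-like one, fell by 0.14. Its groups overlapped (limma adjusted p 0.0498), and edgeR or leaving out wild-type replicate 1 ended the call. Of 29 other genes whose mRNAs carry a TOP tract, Rack1 and Fau among them, 16 fell and 1 rose (median -0.14). Eef1a1, the elongation factor that brings aminoacyl-tRNA, was at 173857, 172182 and 177044 normalized counts in wild type and 146153, 143920 and 137538 in Txn1 KO (log2 change -0.29 ± 0.04). Eef2, the factor of translocation, fell by 0.23, and Cct4, a chaperonin subunit, fell by 0.25.

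Factors that assemble ribosomes did not move in one direction: of 113, 9 rose and 7 fell (median -0.0045). Nop53, which binds the pre-60S particle, fell by 0.31, and Ubtf, a factor of rRNA transcription, fell by 0.22. Mphosph10 and Gnl3, nucleolar proteins, rose with log2 changes of 0.34 and 0.33. Mitochondrial ribosomal proteins, which are made for another ribosome, gave 1 rise and 7 falls among 78 (median -0.05), a share of falls (8.97%) close to that of all genes. The share of rises (1.28%) was below the 11.5% of all genes. Of the 78, 55 had a log2 change below 0, against 7125 of all 13977 tested genes. In 18 every Txn1 KO library was below every wild-type library and in 4 above, against 17.6% and 18.5% of all tested genes. Mrps34 fell by 0.37, Mrps16 by 0.30 and Mrpl23 by 0.23, and Mrpl55 rose by 0.30 on the log2 scale. Of 36 genes that control TOP mRNAs or growth, 4 rose and 5 fell (median -0.014), close to the shares of all genes. Those that rose were Ddit4, an inhibitor of mTOR signalling, with a log2 change of 0.44, Sesn2 with 0.24, Rps6kb1, an S6 kinase, with 0.20 and Larp4 with 0.15. Rps6ka2, a kinase of the RSK family, fell by 0.50, Zfas1, a snoRNA host, by 0.34, Maf1, the repressor of RNA polymerase III, by 0.20 and Larp1 by 0.15.

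Of 23 genes of ribosome quality control and rescue, 2 rose and 4 fell. Pelo, which splits stalled ribosomes, rose with a log2 change of 0.38 and Vcp, an unfolding ATPase, with 0.17. Rnf10 and Zfp598, ubiquitin ligases that mark 40S proteins, fell by 0.17 and 0.20. In a short list of p53 and its targets, 3 of 9 rose and none fell: Sesn2, an inhibitor of the mTOR kinase complex, with a log2 change of 0.24, Phlda3 with 0.24 and Mdm2 with 0.12. Each of these 3 calls was lost without wild-type replicate 2, wild-type replicate 3 or Txn1 KO replicate 2, that of Sesn2 also without wild-type replicate 1, and those of Phlda3 and Mdm2 also without Txn1 KO replicate 1. Among the 10 genes named Rps6k or Rps19bp1, which are kinases and a binding protein and not parts of the ribosome, 2 rose (Rps6kc1 and Rps6kb1) and 2 fell (Rps6ka2 and Rps19bp1). The calls on Rps6kb1 and Rps19bp1 were lost without wild-type replicate 3 or Txn1 KO replicate 2, among others. Of the 62 pseudogenes with -ps names, 5 rose and 1, Rpl9-ps6, fell (145 ± 22 to 89.1 ± 15.2 normalized counts, SD, n = 3).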

How the data were processed

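The 6 libraries were made from polyA-selected RNA with the NEBNext Ultra II RNA kit and ERCC spike-ins, as the labels' protocols state. The reference was GRCm38 (mm10), and the tools STAR 2.5.2b, Trimmomatic 0.36, bcl2fastq 2.20 and DESeq2 are named, per the submitters' processing notes. The counter, its use of strand and its handling of reads that match several genes are not given in the labels or notes used here. The deposited per-library signal is the authors' count after division by 1 size factor for each library. This follows from the values, 100% of which are whole multiples of their library's step (0.777 to 1.35 normalized counts) at a tolerance of 0.01 reads. The log2 changes and the p-values of the deposited table are the authors'. Columns named BMDM and a number were taken as wild type, the only other group.

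Tests used limma 3.58.1 (R 4.3.3, trended prior) on log2(normalized count + 1), since the values are normalized, over 13977 genes with a mean of at least 10, with Benjamini-Hochberg adjustment over all of them, two-sided. Log2 changes are on that scale, which understates low genes. Fold values given as percents are ratios of means, and their 95% intervals come from the fit on that scale. On simulated libraries with 200 changed genes, 100% of 100 changes of 0.5 (log2) and 18% of 100 changes of 0.2 were recovered. The fit ran on 13889 genes, but the changed genes all had means of at least 1000 normalized counts, so lower genes were not covered. All genes also had 1 common dispersion (0.0029), so genes with another spread were not covered either. The simulated run gave 122 calls, while the data gave 1607 higher and 1394 lower, and the adjustment depends on that number. The 18% is therefore not the share of such changes found among the members. edgeR 4.0.16 and DESeq2 1.42.0 were run on the recovered whole reads. Annotation was GENCODE M21 (GRCm38), which matched all 89 members, and copies were found with BLAST 2.17.0. RefSeq start windows were held for 65 members, at the start nearest the GENCODE gene end.

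The members and lists were chosen with earlier results of these data known. Named members are the 10 largest rises and falls among those called, the 5 highest and 5 lowest means, the P-stalk, paralogues with their partners, Rpsa, Rps6, Rps27a, Rpl5 and Rpl11, and up to 4 called genes per other list. Other members named with values (Rpl38, Rps10, Rps21, Rps28 and Rps29), Ddit4, Larp4 and all copies were chosen after their values were seen. A few named or drawn members are not reported here. Alternatives were other pseudocounts, filters, thresholds and scalings, other tools, the authors' statistics, the replicate number as a block, and leaving out libraries.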

Additional observations from a re-analysis of the deposited data

How the results depend on the processing

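The count of members lower, 51, was between 34 and 53 under the alternatives that kept all 6 libraries (edgeR 50, DESeq2 53), and the median log2 change was below 0 in every alternative run. Ribosomal protein genes called higher numbered 2 with DESeq2. Leaving out each library in turn gave 1 to 6 members called higher, 35 to 53 called lower, medians of -0.15 to -0.09, and 2088 to 2820 for all genes called. Without wild-type replicate 1 and Txn1 KO replicate 3, 7 ribosomal protein genes were called higher and 32 lower. At an adjusted p under 0.01, the number of all genes called was 1833 in place of 3001. The ribosomal protein share of reads differed by -0.39 percentage points, by -0.54 without the 100 genes of highest mean, and by -0.44 to -0.30 when a library was left out.

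Among 68 named genes, 11 of 1291 alternatives turned the direction, in 5 genes, none of them called. The log2 change of Rplp1 was -0.00083 with TMM scaling, -0.0035 with edgeR, -0.0020 with DESeq2 and -0.0018 in the authors' deposited table, and -0.031 to 0.067 over the fits that leave libraries out. When libraries were left out, Rplp2 ranged from -0.0022 to 0.086, Rpl36al from -0.015 to 0.098, Rpl36a from -0.016 to 0.074 and Rps27 from -0.094 to 0.014. The cause was not tested.

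The replicate numbers did not pair the samples (correlations of deviations of -0.27, 0.14 and -0.33). With the replicate block, 52 ribosomal protein genes were called lower and 1 was called higher, the median log2 change of ribosomal protein genes was -0.13, and 2675 was the number for all genes called.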
